A study of Rattus norvegicus with 8 samples.

Results

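Signals of 10 genes of the Wnt pathway were compared between retinal cells given a Klf4 plasmid and retinal cells given a control plasmid. The genes were the receptors Fzd5 and Fzd8, the ubiquitin ligase gene Rnf43, the transcription factor gene Tcf7l1, the target and feedback genes Axin2, Nkd1 and Sp5, and the secreted inhibitor genes Sfrp1, Sfrp2 and Dkk1. They were found on the array through the RefSeq transcript that each gene probe names, which gave 15 probes for these 10 genes, of 45598 gene probes for 16581 gene symbols in all. Of the 15 probes, 13 passed a filter on dim signals, and each of the 10 genes kept at least 1 probe.

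The tested cells were from retinas of Lister hooded rats of postnatal day 0, electroporated in vitro with a plasmid for Klf4 (4 arrays), a zinc-finger transcription factor, and they were set against cells from like retinas that received a control plasmid (4 arrays). Both groups had the same pulses of 25 V and 50 ms, 39 hours of explant culture, dissociation, and sorting for GFP, which marks electroporated cells. Arrays carry the numbers 2 to 5 within a group. Nothing in the labels ties the arrays to separate animals or electroporations, so a p-value here measures the spread between samples only, and that spread may be technical. The sorted cells are a mixture of retinal cell types, in which fewer cells of a type and less RNA per cell cannot be told apart.

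Wnt proteins are secreted signals that bind Frizzled receptors together with the co-receptors Lrp5 or Lrp6. In the canonical branch, binding halts the destruction of beta-catenin, which then enters the nucleus and acts through DNA-binding factors of the TCF/LEF family on target genes, and several of those targets feed back to dampen the signal. In the mouse eye, Frizzled receptors and secreted Frizzled-related proteins are known for their roles in the early optic cup and in retinal progenitors, and canonical signalling is known at the peripheral margin of the retina.

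The stretches upstream of 3 of these genes are shown because Tcf7l1 was the only one of the 10 that passed the test of a difference with the Klf4 plasmid, and because Nkd1 and Sp5, both known targets of the pathway, carry the letters that TCF/LEF factors bind. The stretches of Axin2 and Dkk1 carry such letters too and are not shown, so Nkd1 and Sp5 serve as examples. Each stretch is the 250 bases before a gene start in RefSeq, build GRCr8, read 5′ to 3′ on the gene's strand. Capitals mark CTTTGAA or CTTTGAT, the TCF/LEF letters, and CCNCNCCC, letters of KLF factors that also match GC boxes of Sp factors, each searched on both strands, with matches that may overlap. The Tcf7l1 stretch is chr4:106403422-106403671 (minus strand), that of Nkd1 is chr19:34722847-34723096 (minus strand) and that of Sp5 is chr3:75682427-75682676 (plus strand). The Nkd1 and Sp5 stretches end at the outermost start of the gene in the gene table. The Tcf7l1 stretch ends at a start 591 bases downstream of that gene's outermost start, and so lies within the annotated gene.
Tcf7l1: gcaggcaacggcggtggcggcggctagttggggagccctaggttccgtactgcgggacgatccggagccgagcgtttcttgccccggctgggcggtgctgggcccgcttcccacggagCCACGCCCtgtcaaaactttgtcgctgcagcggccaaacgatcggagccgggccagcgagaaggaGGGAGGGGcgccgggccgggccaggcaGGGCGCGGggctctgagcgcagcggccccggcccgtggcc
Nkd1: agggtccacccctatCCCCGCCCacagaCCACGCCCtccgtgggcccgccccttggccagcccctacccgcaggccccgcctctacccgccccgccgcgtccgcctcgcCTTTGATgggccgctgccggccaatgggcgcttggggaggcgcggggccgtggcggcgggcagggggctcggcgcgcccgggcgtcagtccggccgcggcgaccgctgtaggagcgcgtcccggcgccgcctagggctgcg
Sp5: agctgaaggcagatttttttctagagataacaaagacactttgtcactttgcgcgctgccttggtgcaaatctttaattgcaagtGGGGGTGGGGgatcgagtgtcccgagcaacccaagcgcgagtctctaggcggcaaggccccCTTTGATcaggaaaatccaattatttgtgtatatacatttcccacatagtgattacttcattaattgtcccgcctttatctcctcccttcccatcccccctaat

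The Tcf7l1 stretch held 3 KLF matches and 0 TCF/LEF matches, that of Nkd1 2 and 1, and that of Sp5 2 and 1. Upstream stretches were found for 9 of the 10 genes, all but Sfrp1, and 7 of these held a KLF match and 4 a TCF/LEF match (Axin2, Nkd1, Sp5 and Dkk1). The stretches of Axin2, Rnf43 and Fzd8, like that of Tcf7l1, lie within the annotated gene. Those of Axin2, Rnf43 and Fzd8 end kilobases downstream of its outermost start. Among all 33469 upstream stretches of the same length, 42.8% held a KLF match and 7.58% a TCF/LEF match. A match describes letters and is not a measured binding site.

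RNA was read on 1-colour arrays on 1 slide, and a normalised log2 signal is the log2 signal of a probe less the 75th percentile over the gene probes of its array. That percentile was 787 to 1564 signal units on the Klf4 arrays and 732 to 1718 on the control arrays, and the share of gene probes well above background, a flag set by the scanner software, was 65.1% to 83.0% and 69.5% to 83.2%. Both arrays numbered 4 were outside a quality limit of that software, Klf4 replicate 4 had the lowest share well above background, and both arrays numbered 5 came from a second scan. The Klf4 arrays lay in slide columns 2 and 4 and the control arrays in columns 1 and 3, so column and group cannot be told apart. The probe for Klf4 itself read -3.00 ± 0.86 with the Klf4 plasmid and -3.27 ± 0.62 with the control plasmid (SD, n = 4 each; limma adjusted p = 0.916), and since no source used here gives its place relative to the insert of the plasmid, it does not check the labels. Of marker genes tested, 0 of 15 for progenitors and Muller glia passed, with mean normalised log2 signals of 1.82 to 2.05 on Klf4 arrays and 1.77 to 2.10 on control arrays, and 0 of 8 for the ciliary margin, 0 of 3 for ganglion cells, 0 of 2 for pigment epithelium and 0 of 4 for lens passed. Of 6 photoreceptor markers 2 were lower, while 2 of 4 endothelial markers (Esam and Tek), 2 of 5 for pericytes and fibroblasts, 1 of 7 for microglia and 1 of 4 for astrocytes were higher. At the same threshold, an adjusted p under 0.05 in limma, 3.20% of all features were higher and 0.463% lower. Log2 differences below 0 were found for 6 of 6 photoreceptor, 3 of 5 pericyte and fibroblast, 4 of 7 microglia, 2 of 4 astrocyte and 1 of 4 endothelial markers. The mean of the 4 tested endothelial markers was -0.16 to 0.58 on Klf4 arrays and -1.41 to -0.88 on control arrays. That of the astrocyte markers was -3.30 to -2.87 and -4.95 to -3.52. For pericytes and fibroblasts it was -1.62 to -1.22 and -2.02 to -1.64, and for photoreceptors 0.90 to 2.02 and 1.65 to 2.72. Each of these means includes the called genes. The pigment genes Tyr and Tyrp1, the fibroblast gene Lum and the leukocyte gene Ptprc were not well above background on any array. The part of these cell types in the results below was not tested.

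With Klf4, 1 of the 10 genes was higher past the threshold, an adjusted p under 0.05 in limma with Benjamini-Hochberg adjustment, and 0 were lower. Over all 30009 genes and unnamed features tested, 3.20% were higher and 0.463% lower, 3.66% in either direction. The median log2 difference, Klf4 minus control, was 0.01 over the 10 genes, with 5 above 0 and 5 below. Over all features tested it was -0.07, with 11718 above 0 and 18291 below. In 1 of the 10 the groups did not overlap, with the Klf4 arrays higher, and over all features this held for 5.73% with Klf4 higher and 4.48% with Klf4 lower, 10.2% in all. An unadjusted p under 0.05 was reached by 1 of the 10, against 11.9% of all features. The count of 1 among the 10 was the same in each of 21 alternative settings, among them the one without both arrays numbered 4, whereas the share of all features that was lower moved with single arrays, as detailed in the closing section.

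**Figure D1:**
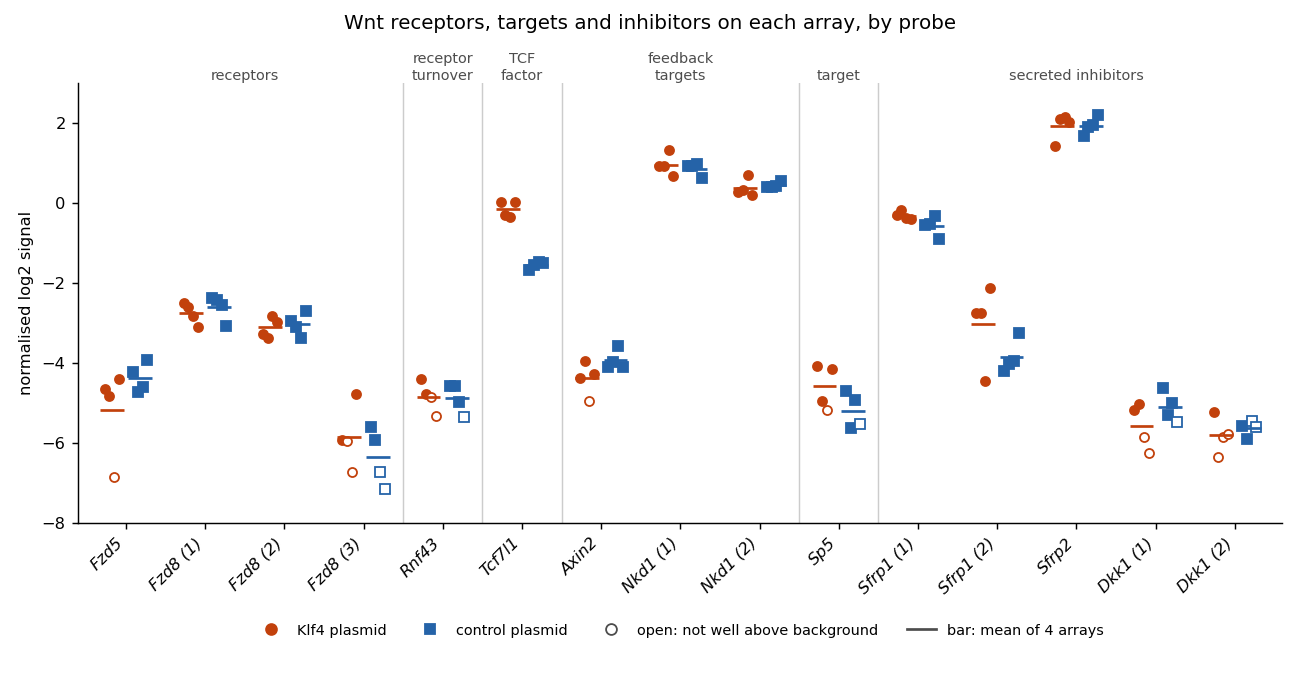
Normalised log2 signal (y axis) of the 15 probes of the 10 genes (x axis, grouped by role), with the 4 Klf4 arrays as circles on the left and the 4 control arrays as squares on the right of each probe. Bars are group means, and open symbols are arrays on which the probe was not well above background. Numbers in brackets name the probes of 1 gene from the brightest down, and levels of different probes are not comparable. The Klf4 arrays of Tcf7l1 lie between -0.36 and 0.02, all above its control arrays, and those of each other probe overlap the controls.

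Tcf7l1 encodes a TCF/LEF family factor that in mouse embryonic stem cells acts mainly as a repressor of target genes. On the unscaled log2 scale its signal was 10.63, 10.15, 10.16 and 9.64 on Klf4 arrays 2 to 5, against 8.86, 9.20, 8.78 and 8.004 on control arrays 2 to 5. The normalised log2 signals were 0.02, -0.30, -0.36 and 0.02 on the Klf4 arrays and -1.68, -1.55, -1.49 and -1.51 on the control arrays. Each Klf4 array thus lay more than 1 log2 unit above every control array, and the probe was well above background on all 8. The means were -0.15 ± 0.21 with Klf4 and -1.56 ± 0.09 with the control plasmid (SD, n = 4 each), a log2 difference of 1.41 (SE 0.14, 95% interval 1.09 to 1.72, limma adjusted p = 0.000852), or 2.65-fold higher with Klf4 (interval 2.12 to 3.30). Within the first scan the log2 difference was 1.36 (limma adjusted p = 0.00868), and within the second, with 1 array a group and no test, it was 1.53. It ranged from 1.18 to 1.496 over the 21 alternatives, with adjusted p up to 0.0108.

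Among 13601 other named genes, those whose normalised log2 signals were most like those of Tcf7l1 over the 8 arrays were Stat5a, C1qtnf6 and Lmna (Pearson r = 0.999, 0.998 and 0.998). The 8 arrays fall into 2 groups, and each of the 3 genes was higher with Klf4 on every array, so these values describe mainly the difference that they share. Their log2 differences were 2.49 for Stat5a, 0.96 for C1qtnf6 and 3.55 for Lmna. The other TCF/LEF genes can be set beside Tcf7l1 only in part: Lef1 was not well above background on any of the 8 arrays, and Tcf7 and Tcf7l2 were not analysed here.

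The receptor genes did not pass the test. Fzd5 encodes a Frizzled receptor needed for eye development in the mouse. Its normalised log2 signals were -4.65, -4.83, -6.87 and -4.42 on Klf4 arrays 2 to 5 and -4.23, -4.74, -4.61 and -3.94 on control arrays 2 to 5. The groups overlapped, and Klf4 replicate 4, on which the probe was not well above background, was far below the other 7 arrays. Fzd5 differed by -0.81 on the log2 scale (SE 0.51, 95% interval -1.97 to 0.35, limma adjusted p = 0.645), and it was -0.25 without Klf4 replicate 4 (adjusted p = 0.730).

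Fzd8, the partner of Fzd5 in mouse eye development, had 3 probes. The brightest read -2.50, -2.62, -2.84 and -3.12 on Klf4 arrays 2 to 5 and -2.40, -2.44, -2.56 and -3.09 on control arrays 2 to 5. On this probe array 5 was the lowest of each group, and the groups overlapped. The log2 difference was -0.15 (SE 0.20, 95% interval -0.62 to 0.32, limma adjusted p = 0.882), an interval that does not reach a 2-fold change, 1 log2 unit, in either direction. The second probe, kept too, gave -0.08 (interval -0.52 to 0.36). The third, named through a predicted transcript, was well above background on 2 arrays of each group, did not pass the filter, and read -6.75 to -4.78 with Klf4 and -7.16 to -5.61 with the control plasmid.

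Rnf43 encodes a membrane ubiquitin ligase that removes Frizzled receptors from the cell surface and is itself a target of the pathway. It was dim, well above background on 2 Klf4 and 3 control arrays, so that it passed the filter through the control arrays. Its normalised log2 signals were -4.41, -4.78, -4.86 and -5.35 on Klf4 arrays 2 to 5 and -4.58, -4.59, -4.99 and -5.36 on control arrays 2 to 5. The groups covered nearly the same range, with array 5 the lowest of each. The difference for Rnf43 was 0.03 on the log2 scale (SE 0.25, 95% interval -0.54 to 0.59, limma adjusted p = 0.990), and its sign turned in 2 of 17 alternatives that tested it, to -0.12 without Klf4 replicate 2 and -0.13 without control replicate 5.

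**Figure D2:**
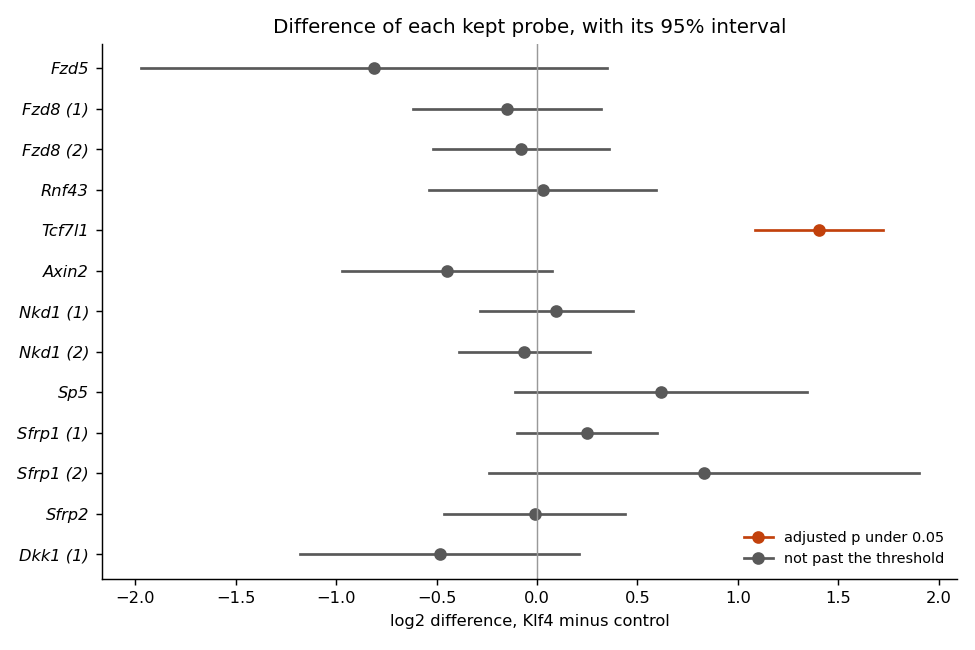
Log2 difference, Klf4 minus control (x axis), of each of the 13 kept probes (y axis), with its 95% interval from a limma fit over every kept probe (4 arrays a group). The interval of Tcf7l1 runs from 1.09 to 1.73 and lies above 0, while each of the other 12 intervals holds 0.

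The feedback and target genes did not pass either. Axin2 encodes a scaffold of the complex that destroys beta-catenin and is among the most widely used readouts of canonical signalling. Its normalised log2 signals were -4.38, -3.95, -4.95 and -4.29 on Klf4 arrays 2 to 5, against -4.11, -3.98, -3.58 and -4.10 on control arrays 2 to 5. Klf4 replicate 3 lay within the controls and the other 3 Klf4 arrays below them. The means were -4.39 ± 0.42 with Klf4 and -3.94 ± 0.25 with the control plasmid (SD, n = 4 each), a log2 difference of -0.45 (SE 0.23, 95% interval -0.97 to 0.07, limma adjusted p = 0.522). Klf4 replicate 4 was not well above background for Axin2, and without that array the difference was -0.26 (adjusted p = 0.605). Without both arrays numbered 4 it was -0.14 (adjusted p = 0.871).

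Nkd1, whose product binds Dishevelled and dampens the signal, was well above background on all 8 arrays. Its brighter probe read 0.92, 0.91, 1.30 and 0.66 on Klf4 arrays 2 to 5 and 0.90, 0.92, 0.96 and 0.62 on control arrays 2 to 5, in normalised log2 signal. Within the groups, array 5 was the lowest, and Klf4 replicate 4 the highest of all 8. The log2 difference was 0.10 (SE 0.17, 95% interval -0.28 to 0.47, limma adjusted p = 0.916), and -0.02 without Klf4 replicate 4. The second probe gave -0.06 (interval -0.39 to 0.26), so the 2 probes differed in sign and neither interval reaches a 2-fold change.

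Sp5 encodes a zinc-finger factor of the Sp family, related to the KLF factors, and is a direct target of beta-catenin in mouse embryos. It was dim, well above background on 3 arrays of each group, with normalised log2 signals of -4.08, -4.95, -5.19 and -4.16 on Klf4 arrays 2 to 5 and -4.72, -5.64, -4.94 and -5.54 on control arrays 2 to 5. Klf4 replicates 2 and 5 lay above all controls, and replicates 3 and 4 among them. The means were -4.59 ± 0.56 with Klf4 and -5.21 ± 0.45 with the control plasmid (SD, n = 4 each), a log2 difference of 0.62 (SE 0.32, 95% interval -0.11 to 1.34, limma adjusted p = 0.533). By scan, the Sp5 difference was 0.36 among the 6 arrays read first and 1.38 between the 2 read later. With normexp background correction of the median spot signal and an offset of 50, which by itself shrinks log2 differences of dim probes, it was 0.17 (adjusted p = 0.881).

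Of the secreted inhibitors, Sfrp1 and Sfrp2 bind Wnt proteins outside the cell, and Dkk1 blocks Lrp5 and Lrp6. Sfrp1 had 2 kept probes. The brighter read -0.32, -0.20, -0.39 and -0.42 on Klf4 arrays 2 to 5 and -0.55, -0.52, -0.33 and -0.92 on control arrays 2 to 5, with control replicate 4 among the Klf4 arrays. The log2 difference of this probe was 0.25 (SE 0.15, 95% interval -0.10 to 0.60, limma adjusted p = 0.635).

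The other Sfrp1 probe read -2.77, -2.76, -4.47 and -2.13 on Klf4 arrays 2 to 5, against -4.21, -4.04, -3.95 and -3.26 on control arrays 2 to 5. Klf4 replicate 4 was below every control, and the other 3 Klf4 arrays were above every control. In the limma fit over every kept probe its log2 difference was 0.83 (SE 0.47, interval -0.24 to 1.90, adjusted p = 0.583), and without Klf4 replicate 4, an alternative chosen after seeing the data, it was 1.31 (SE 0.27, adjusted p = 0.0332). The call on this probe thus rested on 1 array, and the brighter probe gave 0.27 without the same array (adjusted p = 0.518).

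Sfrp2, known in mice from retinal progenitors, was well above background on all 8 arrays. Its normalised log2 signals were 1.42, 2.09, 2.14 and 2.01 on Klf4 arrays 2 to 5 and 1.67, 1.88, 1.95 and 2.20 on control arrays 2 to 5. The means of 1.91 ± 0.33 with Klf4 and 1.93 ± 0.22 with the control plasmid (SD, n = 4 each) differed by less than the spread between replicates. Their log2 difference was -0.01 (SE 0.20, 95% interval -0.46 to 0.44, limma adjusted p = 0.994), an interval that does not reach a 2-fold change.

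Dkk1 was dim. Its brighter probe, well above background on 2 Klf4 and 3 control arrays, read -5.20, -5.04, -5.86 and -6.26 on Klf4 arrays 2 to 5 and -4.63, -5.30, -5.00 and -5.49 on control arrays 2 to 5. Klf4 replicates 4 and 5 lay below all controls, and on both of them the probe was not well above background, so that it passed the filter through the control arrays. The log2 difference was -0.48 (SE 0.30, 95% interval -1.18 to 0.21, limma adjusted p = 0.645), and it was -0.26 without Klf4 replicate 5 (adjusted p = 0.787) and -0.13 with normexp (adjusted p = 0.875). The other probe was well above background on 1 Klf4 and 2 control arrays, did not pass the filter, and read -6.37 to -5.23 with Klf4 and -5.91 to -5.45 with the control plasmid.

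**Figure D3:**
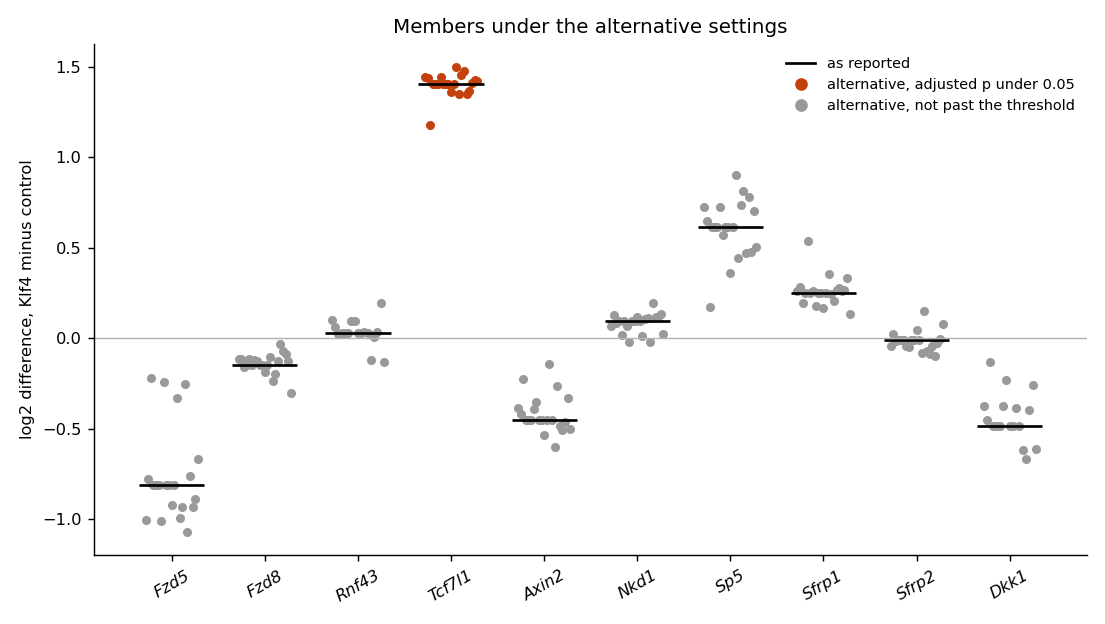
Log2 difference, Klf4 minus control (y axis), of the 10 genes (x axis) as reported (bar) and under each alternative setting that tested the gene (points, 17 to 21 a gene). Tcf7l1 lies between 1.18 and 1.496 and past the threshold in each, and the other 9 genes are past it in none.

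The wider pathway was described with lists of 97 further genes in 5 roles, of which 86 had a probe and 74 were tested. Of these, 7 were higher with Klf4 and 1 lower past the threshold, against 3.20% and 0.463% of all features, and the median log2 difference was -0.05, against -0.07 over all features. The number past the threshold lay between 6 and 11 over the alternatives. Of the 7 higher genes, 4 (Wnt11, Wnt9a, Wnt2b and Tbxt) passed the filter on dim signals through the Klf4 arrays alone, where they were high, so these counts and medians describe the genes that passed and support nothing beyond that. With no filter on dim probes, each of the 4 was past the threshold too, with limma adjusted p of 0.00105 for Wnt11, 0.000831 for Wnt9a, 0.0174 for Wnt2b and 0.0266 for Tbxt. These p-values rest on the same signals and the same log2 differences, with dim controls, so they are no separate support.

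Of 18 ligand and R-spondin genes tested, 4 were higher and 1 lower, against 3.20% and 0.463% of all features. Their median log2 difference was -0.05, and 3 of the 4 higher ones entered the test through the Klf4 arrays alone. Wnt11, a ligand known mainly from beta-catenin-independent signalling, read -0.75 ± 0.67 with Klf4 and -5.79 ± 0.75 with the control plasmid (SD, n = 4 each), a log2 difference of 5.04 (SE 0.43, limma adjusted p = 0.000451). Log2 differences of 4.36 for Wnt10b, 4.22 for Wnt9a and 3.098 for Wnt2b passed too, and each of the 4 ligand genes was higher on every Klf4 array than on any control array. They were well above background on 2 or 3 of the 4 control arrays, so their sizes rest on dim control signals, and with normexp they were 3.06 for Wnt11, 2.97 for Wnt10b, 2.44 for Wnt9a and 1.38 for Wnt2b, each still past the threshold. Rspo2, whose product amplifies Wnt signals by removing Rnf43 and its relative, fell by 0.66 (SE 0.14, limma adjusted p = 0.0371). Its call was lost without any 1 array except Klf4 replicate 4, with limma adjusted p of 0.0506 to 0.120, and it held in 8 of 21 alternatives; as the mean over its probes Rspo2 was at -1.15 (adjusted p = 0.105).

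Among 15 further receptor and co-receptor genes, 2 were higher and 0 lower, against 3.20% and 0.463% of all features, with a median of 0.04. Ror2, a receptor tyrosine kinase for Wnt5a, read -1.96, -2.78, -2.73 and -1.52 on Klf4 arrays 2 to 5 and -4.32, -4.40, -4.22 and -4.80 on control arrays 2 to 5. Every Klf4 array was above every control array, and the log2 difference was 2.19 (SE 0.30, limma adjusted p = 0.00429). The Frizzled gene Fzd9 was higher by 1.38 (SE 0.19, adjusted p = 0.00480), at -1.31 ± 0.14 with Klf4 and -2.70 ± 0.36 with the control plasmid (SD, n = 4 each). Fzd1 was at -0.67 (adjusted p = 0.0923), and it passed as lower in 4 of 21 alternatives, among them without Klf4 replicate 4 (-0.79, adjusted p = 0.0220). Of the other receptors, Fzd3 was at -0.40, Fzd4 at 0.43, and the co-receptors Lrp5 and Lrp6 at 0.04 and -0.19, none past the threshold.

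None of 22 signal transduction genes passed in limma and 0 of them had an unadjusted p under 0.05, against 3.66% and 11.9% of all features. Their log2 differences ran from -0.53 to 0.14 with a median of -0.04. The 3 with the smallest p were Apc, a scaffold of the destruction complex, at -0.53, Btrc, a ubiquitin ligase adaptor for beta-catenin, at -0.23, and Dvl3, a Dishevelled gene, at -0.23. Without Klf4 replicate 4, Apc was at -0.28 and Dvl3 at -0.09. Ctnnb1, which encodes beta-catenin and was chosen after its value was seen, was at 0.05.

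Of 12 further feedback and target genes 1 was higher and 0 lower, against 3.20% and 0.463% of all features, with a median of -0.07. The gene that rose was Tbxt, which encodes the mesodermal factor brachyury. It read -2.94, -4.37, -5.42 and -1.92 on Klf4 arrays 2 to 5 and -7.69, -7.44, -7.63 and -7.28 on control arrays 2 to 5. It was well above background on 3 Klf4 arrays and on no control array, so that it entered the test through the Klf4 arrays alone and only a bound holds. The limma adjusted p of 0.0143 belongs to the fitted log2 difference of 3.85, against control signals not well above background. By the bound, which was not itself tested, Tbxt was at least 5.24-fold higher with Klf4. For this bound the Klf4 mean was set against a floor in the controls: on each control array, the dimmest signal that any probe well above background gave there, or the Tbxt signal where that was higher, averaged over the 4. Tbxt was not tested in 4 of 21 alternatives, the first scan alone and those without Klf4 replicate 2, 3 or 5, where it did not pass the filter, and of the other 17 its call was lost with normexp (1.40 on the log2 scale, adjusted p = 0.117). Ascl2 (0.50, limma adjusted p = 0.172) and Msx1 (0.82, adjusted p = 0.384) lay higher on every Klf4 array than on any control array without passing. Over all features, passing or not, 5.73% lay higher in this way. Msx1 was at 0.45 without Klf4 replicate 4 and 0.46 with normexp. Ccnd1 and Myc, chosen after their values were seen, were at 0.17 and -0.20. Ccn4, chosen likewise, was well above background on no Klf4 array and on 3 control arrays and did not pass.

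Among 7 further secreted inhibitor genes 0 passed in limma, 1 had an unadjusted p under 0.05, and 6 lay below 0, with a median of -0.11. Of all 30009 features, 11.9% had such a p and 18291 lay below 0, with a median of -0.07. Frzb, which encodes a secreted Frizzled-related protein, read 3.06, 3.45, 3.51 and 2.92 on Klf4 arrays 2 to 5 and 3.51, 3.69, 3.63 and 3.90 on control arrays 2 to 5. The highest Klf4 array lay just below the lowest control array. The log2 difference was -0.45 (SE 0.17, limma adjusted p = 0.325). Igfbp4 was at -0.67, and at -0.26 without control replicate 5 and -0.43 without Klf4 replicate 4. Sostdc1 was at 0.36, and at 0.18 without Klf4 replicate 4.

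**Figure D4:**
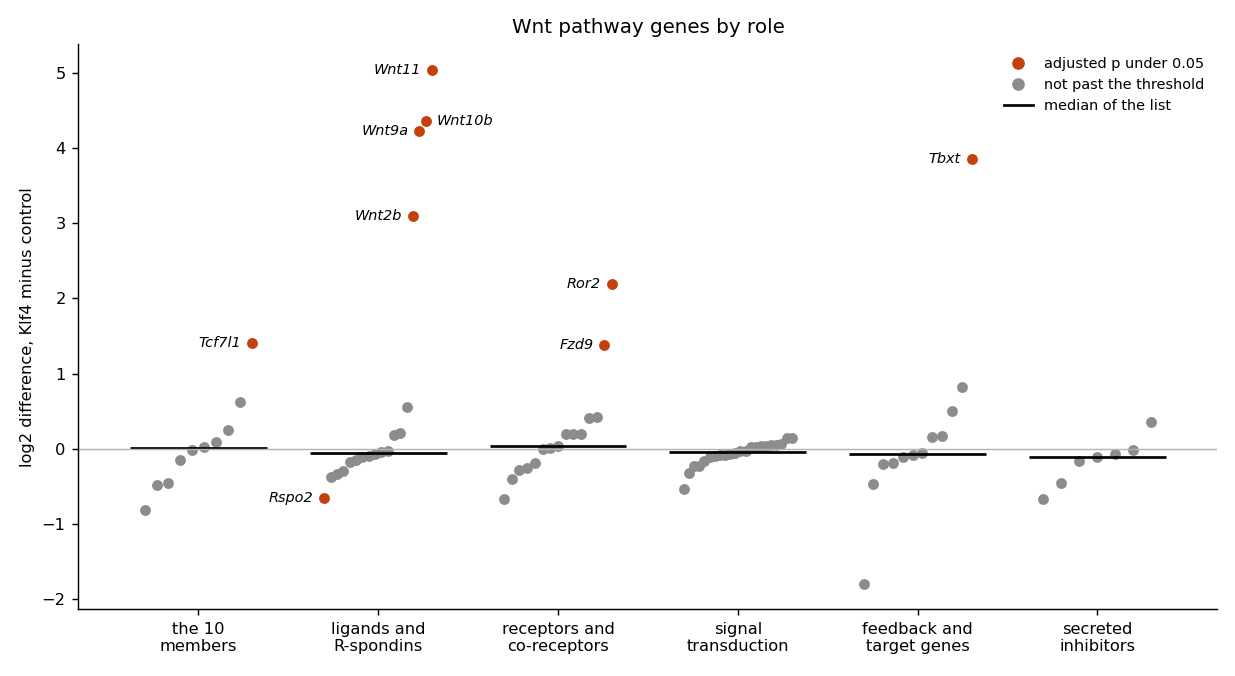
Log2 difference, Klf4 minus control (y axis, limma, 4 arrays a group), of the 10 genes and of 5 lists of further Wnt pathway genes (x axis), with 1 point a gene and a bar at each list's median. Named points are past the threshold: Wnt11 (5.04), Wnt10b, Wnt9a and Wnt2b lie far above 0, as do Tbxt, Ror2 and Fzd9, while the medians lie between -0.11 and 0.04. The values of Tbxt and of the lowest point, Ccn4, are fitted ones against a group with no array well above background.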

How the data were processed

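Per the labels, the 8 arrays are Agilent 1-colour arrays read in Cy3, each of total RNA from sorted GFP-positive cells. Per the file headers, spots were read with Feature Extraction 10.7.3.1, and the deposited intensity values had background and a spatial trend removed, with no scaling between arrays. The authors' deposited log2 table, whose columns share 1 median of 7.54 and correlate best with their own arrays (r across probes 0.994 to 1.00), was used as an alternative. No source used here gives its method, and higher values in it go with higher signals. Its results were close to those with quantile normalization (Tcf7l1 at 1.441 and 1.444, 181 features lower in each). The authors' values and quantile normalization are thus not separate checks among the alternatives.

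Control and outlier spots were left out (324 to 421 outlier spots an array, 0 saturated), log2 signals were averaged per probe, and the 75th percentile over the gene probes of an array was subtracted. Kept probes were those flagged well above background on 3 or more of the 4 arrays in either group, and the kept probe of highest mean stood for its gene. Accessions, without versions, were matched to a RefSeq gene table of GRCr8: 21109 probes had 1 symbol, 24489 none and 0 several. The headers name build rn4, so probes are given no coordinates; those of the upstream stretches are RefSeq's on GRCr8. The test was that of limma 3.58.1 in R 4.3.3 (lmFit, eBayes, two-sided, with no covariates), over 30009 genes and unnamed features, with the fit tested on simulated data. Further kept probes of a gene were read from a like fit over all 34758 kept probes. Figures were drawn with matplotlib 3.10.9. The precision is limited by the 8 arrays.

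The 10 genes and the lists were chosen with earlier results of these data known. The text names the 10 genes, list genes past the threshold, up to 3 of the smallest p in a list, the 3 genes most like a called one, and Klf4; any other name was chosen after values were seen. Alternatives covered the scaling, background correction, filter, choice of probe, authors' values, array weights, blocks and left-out arrays.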

Additional observations from a re-analysis of the deposited data

Results flagged for a closer look

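In 30 groups of 4 arrays, 15 probes in each of 2 groups, an array was compared with its group by the gap to its nearest neighbour over the group's range, a rule that chance meets in about 1 in 20 groups, and 2 groups met it. Klf4 replicate 4 stood below the other Klf4 arrays for Fzd5, at a normalised log2 signal of -6.87 against -4.83 to -4.42, and was not well above background there. Control replicate 5, of the second scan, stood below the other controls for the brighter Nkd1 probe, at 0.62 against 0.90 to 0.96, and Klf4 replicate 5 of the same scan was the lowest Klf4 array there, at 0.66.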

How the results depend on the processing

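Over the 21 alternatives, Tcf7l1 kept its direction and its call, at 1.18 (normexp) to 1.496, and the other 9 genes stayed short of the threshold in each alternative that tested them; Rnf43 and Dkk1 were tested in 17. The differences near 0 changed sign: Sfrp2 was at 0.0211 with the array median and 0.0475 within scan 1, Nkd1 at -0.0236 with array weights, and over the left-out arrays Sfrp2 ran from -0.10 to 0.15, Nkd1 from -0.0222 to 0.19 and Rnf43 from -0.13 to 0.19. Over all features the reported 960 higher and 139 lower became 1775 and 1107 with array weights and 613 and 50 within scan 1, and the lower count was 70 with no filter on dim probes and 254 with the scan as a block. With 1 array left out, 569 to 1215 were higher and 32 to 407 lower: the lower count was 38, 68, 407 and 56 without Klf4 replicates 2, 3, 4 and 5 and 32, 50 and 55 without control replicates 2, 3 and 4, and the higher count was 569 without Klf4 replicate 2. The cause was not tested, and the fit within scan 1 and those with 1 array left out also had fewer arrays. With the replicate number as a block, 842 were higher and 101 lower, Tcf7l1 kept its call (limma adjusted p = 0.0108) and Rspo2 lost it (0.0826). Same-numbered arrays correlated at 0.36, 0.24, 0.06 and 0.55 in their deviations for numbers 2 to 5. In 3 of 4 numbers each array correlated best with its own number, a hint of pairing from the data. Same-numbered arrays also lay in neighbouring columns of the same slide row, and only those numbered 5 came from the second scan. Pairing of samples thus cannot be told apart from slide position or, for number 5, from scan. The numbers were not taken to pair the samples because the labels state no pairing and number 4 fell short of the 0.1 asked of every pair. Normexp used the median spot signal with an offset of 50, and by its construction gives smaller differences for dim probes: Fzd5 was at -0.22, Axin2 at -0.23 and Dkk1 at -0.13. Over the left-out arrays, Fzd8 ran from -0.30 to -0.03 and Dkk1 from -0.67 to -0.26, and Sfrp1 was at 0.13 without control replicate 5. For Fzd5, Rnf43, Axin2, Sp5 and Dkk1, signals near background limit what the 4 arrays a group can show.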
